A study of Mus musculus with 4 samples.

Results

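Genes of the Wnt pathway carried 131 of the 33556 m6A peaks called in mouse spinal cord after CCI (chronic constriction injury of the sciatic nerve) and 138 of the 34406 peaks called after sham surgery. Members were taken by gene name: the Wnt ligands, the Frizzled receptors (Fzd), *Lrp5* and *Lrp6*, the Dishevelled genes (Dvl), *Axin1*, *Axin2*, *Apc*, *Apc2*, *Gsk3a*, *Gsk3b*, *Ctnnb1*, *Lef1*, the Tcf7 genes, *Rnf43*, *Znrf3*, and the Dickkopf (Dkk) and Sfrp inhibitors. The members came to 44 genes of 13558 gene names in all, with 39 of 12408 names in the CCI list and 43 of 12907 in the sham list. A further table, of peaks that the authors called different between the groups, held 17 rows of 12 member genes among its 4812 rows. That is 27.3% of the 44 members, where the background over all gene names was 25.3%. Of 55 protein-coding RefSeq symbols that match the same names, 11 had no peak in either list, namely *Wnt1*, *Wnt2*, *Wnt2b*, *Wnt3a*, *Wnt8a*, *Wnt9b*, *Wnt10b*, *Wnt16*, *Fzd3*, *Dkk1* and *Dkk4*.

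The study asked how RNA methylation across the transcriptome differs between injured and sham animals, and the cord was taken at day 7 after surgery. C57BL/6J mice aged 6 to 8 weeks, which the methods describe as male, had silk ligatures tied loosely around the sciatic nerve (CCI), or the same operation with no ligature (sham). Poly(A) RNA of the cord was broken into fragments and captured with an antibody against m6A (the IP library), and the fragments before capture gave the input library. There was 1 IP library and 1 input library in each group, and the number of mice behind a library is not given. No allele or transgene was named for either group.

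A peak is a stretch of transcript in which IP reads exceed input reads. Its fold enrichment, the authors' ratio of IP over input, was the value compared here. Coordinates are those of the deposited tables, for which the submitters' processing notes name GRCm38. With 1 library of each kind per group, a difference between CCI and sham could not be checked in replicates, and no test between the groups was run. All differences below describe these 4 libraries. The tables hold no read counts, so depth is unknown and no interval could be put on a fold enrichment. In a bulk tissue, fewer cells of a type and less RNA per cell cannot be told apart. In the labelled tissue, all 7 neuronal, 3 motor neuron, 5 astrocyte, 5 oligodendrocyte, 2 precursor, 3 endothelial and 5 microglial marker genes looked for had a peak in both lists, as did 4 of 5 caudal Hox genes. None of 3 muscle genes had one. The liver transport gene *Apoa1* had 1 peak in each list, and *Alb* and *Ttr* had none. Among genes of peripheral glia and sensory neurons, *Prx* had peaks in both lists, *Scn10a* had 2 in the sham list and 0 in the CCI list, and *Trpv1* had none.

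Wnt proteins are secreted lipid-modified ligands that bind Frizzled receptors and the co-receptors Lrp5 and Lrp6. Without ligand, a cytoplasmic complex of Axin, Apc and the kinase Gsk3 marks β-catenin for destruction; with ligand, Dishevelled draws Axin to the membrane, β-catenin accumulates, and it joins TCF/LEF factors on target genes. In the spinal cord the pathway is known for dorsal patterning and axon guidance in development, and for roles in oligodendrocyte maturation, blood vessels and synapses later on. m6A is placed on adenosines of mRNA by a methyltransferase complex, most often within a GGAC core, and the antibody also binds m6Am, a related mark on an adenosine next to the cap of some mRNAs.

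Several of the strongest Wnt pathway peaks lay at the 5′ end of the transcript, and the start of transcription is therefore shown for members with a peak over it. The sequences are from RefSeq (GRCm38.p6), whose promoter table had a window for 30 of the 44 genes. In 6 genes a peak covered part of the first 50 transcribed bases. In 4 of these, *Gsk3a*, *Apc2*, *Dvl3* and *Ctnnb1*, the first base itself lay inside a peak. For *Apc2* and *Ctnnb1* the deposited tables place the gene start further upstream, at chr10:80295977 and chr9:120933400. The peak of each begins between that position and the RefSeq start. Each line gives 30 bases of the coding strand, 5′ to 3′, with the first transcribed base in capitals.
Gsk3a, chr7:25237832-25237861, minus strand: cgggtcgaggGtggtgacaacgaagccgac
Apc2, chr10:80301032-80301061, plus strand: aaggaggatcAgtcgtggaggtctcaggat
Dvl3, chr16:20516976-20517005, plus strand: ggaagagtcgCgatcgccagcggagcgccg
Ctnnb1, chr9:120933568-120933597, plus strand: ggcgccgagcCgtcagtgcaggaggccgag

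The annotated first base was A in *Apc2* alone among these 4, against 34.4% of all 32851 promoter windows in the table. GGAC was searched in the first 50 transcribed bases on the transcript strand, and its reverse complement GTCC as well. Of all windows 18.9% held GGAC and 17.4% held GTCC. Among the 6 genes, *Gsk3a* and *Sfrp5* held GGAC and none held GTCC. In *Gsk3a* the match began at base 28 of the transcript, and the 30 bases around it are printed with GGAC in capitals.
Gsk3a, chr7:25237808-25237837, minus strand: gccgacggcagagGGACttcatctcccggc
In *Sfrp5* the match began at base 22 and lay outside both peaks, since the sham peak covered the last 20 of the 50 bases and the CCI peak began further downstream. A match is a description of the letters and not a measured site of methylation.

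Wnt pathway transcripts carried more peaks than the average gene in the lists. The mean was 3.36 peaks per member in the CCI list, against 2.70 over all gene names, and 3.21 in the sham list, against 2.67. *Apc*, a gene with a very long last coding exon, had the most, with 12 peaks in CCI and 10 in sham. The median fold enrichment of the members was 7.12 in CCI and 6.22 in sham, where all peaks had 5.73 and 5.70. Their values ran from 1.26 to 579 in CCI and from 1.23 to 236 in sham, and 4 peaks of each list reached 100. A member peak covered a median of 240 exonic bases in either list, against 211 in CCI and 239 in sham over all peaks.

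By the annotation the authors deposited, member peaks lay mostly in 3′-UTRs and exons. The labels were taken as given, although in *Apc* some peaks labelled 3′-UTR lay upstream of peaks labelled exon. In the CCI list 58 of 131 were 3′-UTR peaks (44.3%, 95% Wilson interval 36.1 to 52.8%, counting error only). Exon peaks numbered 57 (43.5%, 35.3 to 52.1%) and 5′-UTR peaks 16 (12.2%, 7.66 to 18.9%). Over all CCI peaks the shares were 49.8%, 35.5% and 14.7%, each inside the interval of the members. Of the 138 sham peaks, 61 were 3′-UTR peaks (44.2%), 56 exon peaks (40.6%) and 21 5′-UTR peaks (15.2%). Over all sham peaks the shares were 48.9%, 35.1% and 16.1%. The 5′-UTR peaks were the strongest class, with a median fold enrichment of 15.95 in CCI and 17.4 in sham, against 8.51 and 8.21 for all 5′-UTR peaks. The CCI median of the members falls in a gap between 10.3 in *Fzd1* and 21.6 in *Gsk3b*. Overlapping *Lef1* rows at 25.2 and 27.3 both enter it, and with that stretch counted once it would be 10.3. Overlapping *Lef1* rows at 82.5 and 86.0 enter the sham median, which would then lie between 12.8 and 17.4. Medians in 3′-UTRs were 7.27 and 6.97, against 5.92 and 5.81 for all 3′-UTR peaks. In exons they were 5.31 and 4.62, against 4.69 and 4.78. Over all peaks, too, the 5′-UTR medians were the highest of the classes.

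**Figure D1:**
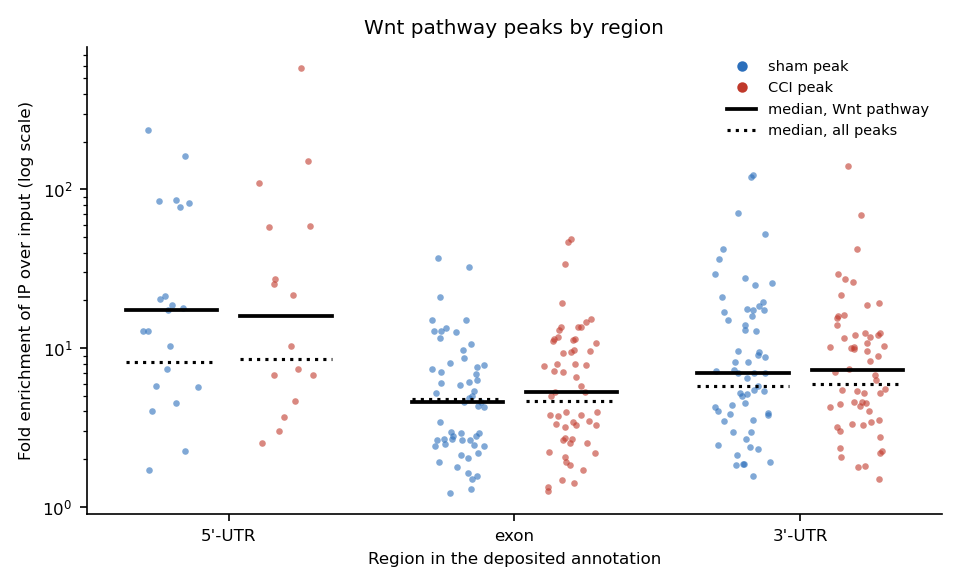
Fold enrichment of IP over input (log scale) of every Wnt pathway peak by annotated region, sham in blue and CCI in red. Solid bars are the medians of the members and dotted bars those of all peaks. The member medians in the 5′-UTR stand at 17.4 (sham) and 15.95 (CCI), above the dotted bars at 8.21 and 8.51. With overlapping *Lef1* rows counted once, the CCI member median would be 10.3.

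Of the 44 genes, 38 had peaks in both lists. *Sfrp2* had a peak in the CCI list alone, and *Wnt8b*, *Wnt9a*, *Wnt11*, *Dvl2* and *Sfrp4* in the sham list alone. Over all gene names, 4.77% were in the CCI list alone and 8.46% in the sham list alone. The number of peaks was larger in CCI for 13 genes, larger in sham for 19 and equal for 12. Of the CCI peaks, 116 of 131 (88.5%, 82.0 to 92.9%) overlapped a sham peak by at least 1 exonic base, and 15 (11.5%) had no partner, where the background was 12.3%. Of the sham peaks, 112 of 138 (81.2%, 73.8 to 86.8%) had a CCI partner and 26 (18.8%) had none, where the background was 16.1%. Both backgrounds lie within the counting error of the members.

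Pairing 1 CCI peak with 1 sham peak, where each was the best match of the other, gave 109 Wnt pathway pairs among 27380. On the log2 scale, the ratio of fold enrichment, CCI over sham, had a median of 0.00 over the members, with the middle 50% between -0.36 and 0.42. Over all pairs the median was 0.03, with the middle 50% between -0.37 and 0.43. The members were higher in CCI in 55 pairs, lower in 53 and equal in 1. Over all pairs 51.8% were higher and 47.8% lower. At least 2-fold higher in CCI were 12 pairs (11.01%) of 9 genes, where the background was 8.59%. At least 2-fold lower were 6 pairs (5.50%) of 6 genes, where the background was 7.25%. Both shares are near the background, and the spread of the members' ratios was close to that of all pairs. The nearest pairs on either side of the 2-fold line had log2 ratios of 1.005 and 0.95 above 0 and of -1.17 and -0.92 below. By support, of 66 pairs with a false discovery rate of IP against input under 1e-10 in both lists, 9 (13.6%) were at least 2-fold apart, and of the other 43 pairs 9 (20.9%) were. Over all pairs these shares were 12.2% and 22.3%. By direction, 5 of the 66 were higher and 4 lower, and 7 of the 43 were higher and 2 lower. The median absolute log2 ratios were 0.38 and 0.41, and the difference between the 2 sets was not tested.

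**Figure D2:**
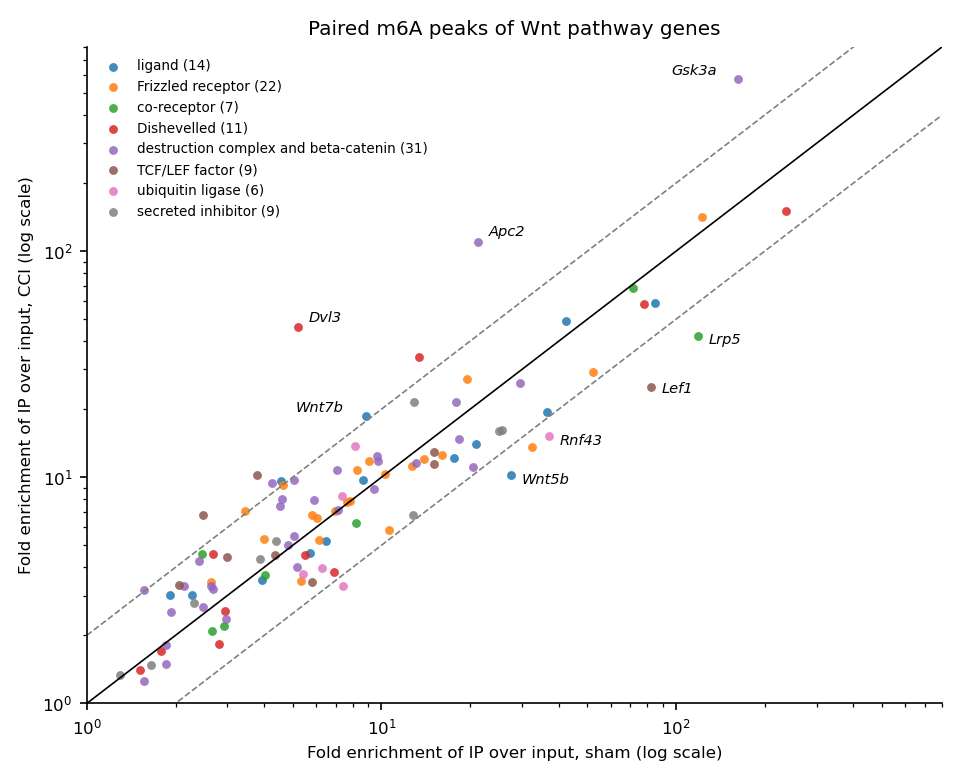
Fold enrichment of IP over input in CCI (vertical, log scale) against sham (horizontal, log scale) for the 109 paired peaks, coloured by role with the number of pairs in brackets. The solid line marks equal values and the dashed lines a 2-fold difference; 12 pairs lie on or above the upper dashed line and 6 below the lower one, and the names mark 8 of these 18.

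**Figure D3:**
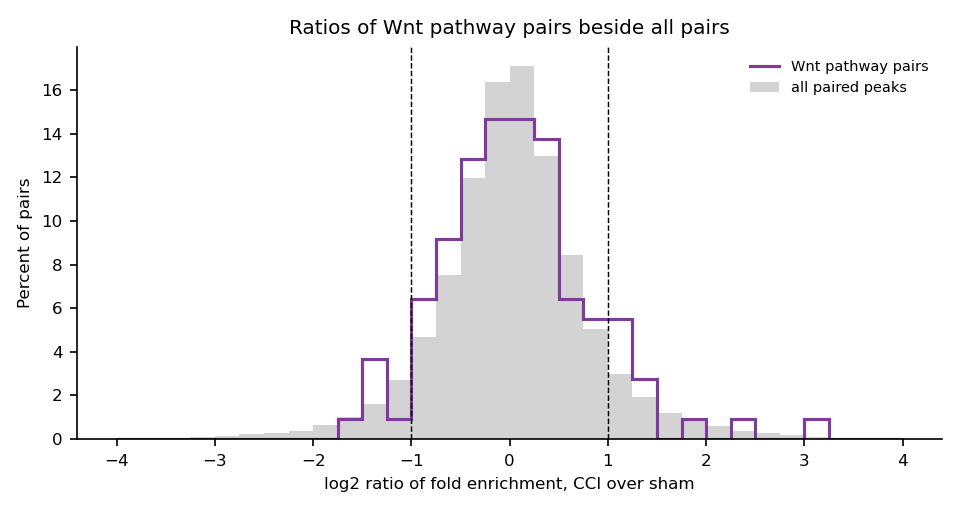
Distribution of the log2 ratio of fold enrichment, CCI over sham, as percent of pairs, for the 109 Wnt pathway pairs (outline) and all 27380 pairs (grey). Dashed lines mark a 2-fold difference; both distributions centre near 0, with medians of 0.00 and 0.03.

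Peaks annotated to a single gene could differ in direction, and may lie on different transcripts of it. Of 29 member genes with at least 2 pairs, 19 (65.5%) had a pair above 0 and a pair below 0, where the background was 66.7%. The distance between the lowest and the highest log2 ratio of a gene had a median of 0.95 over the members and 0.98 over all genes with several pairs. It was widest among the members in *Dvl3*, at 3.56, then in *Apc2* at 2.69 and in *Lef1* at 2.42. For each gene, the pair with the highest mean log2 fold enrichment of both lists was taken as its strongest. Of the 38 strongest pairs, 13 (34.2%) were higher in CCI, 24 were lower and 1 was equal, where the background over 11543 genes was 50.7% higher. At least 2-fold higher were 3 of the 38, where the background was 11.5%, and at least 2-fold lower were 4, where it was 10.1%.

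**Figure D4:**
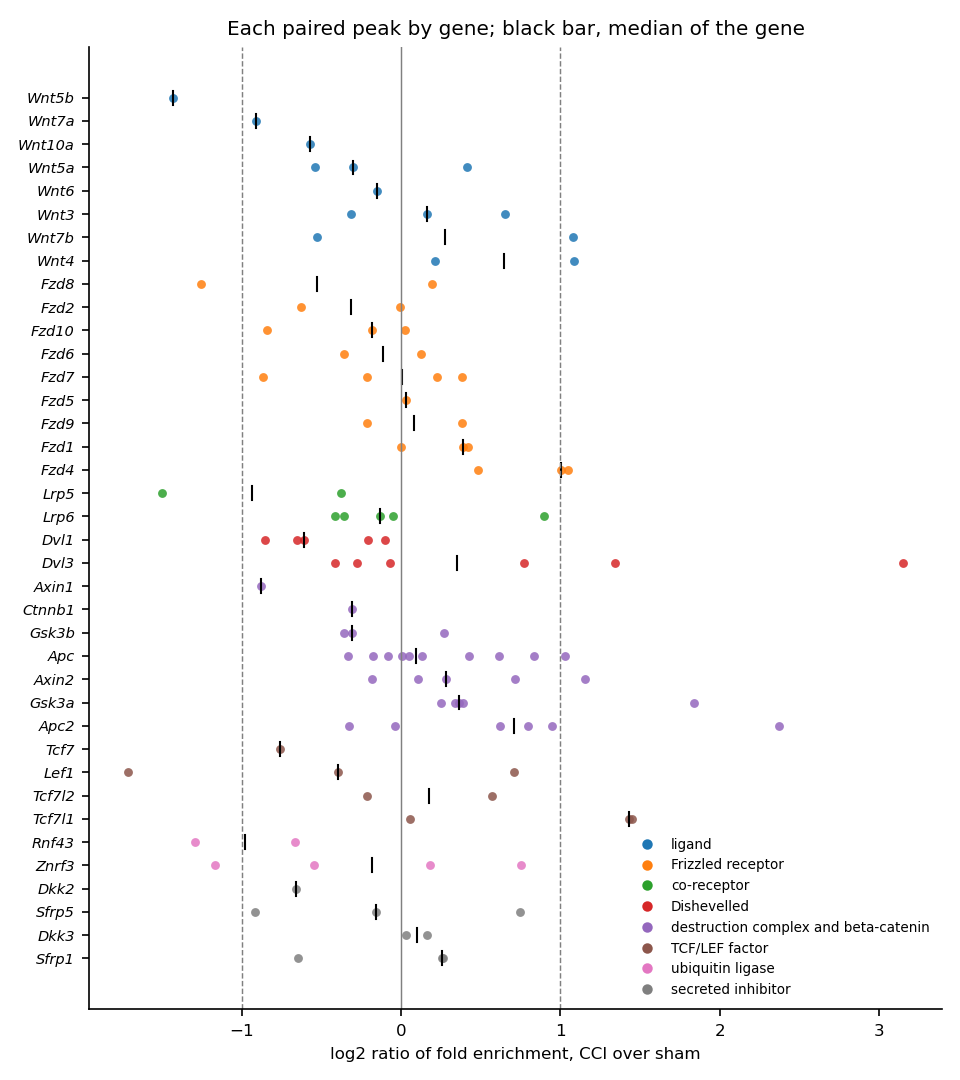
The log2 ratio of fold enrichment, CCI over sham (horizontal), of each paired peak by gene (vertical), grouped and coloured by role; black bars are gene medians and dashed lines a 2-fold difference. The points of *Dvl3* run from -0.42 to 3.15, those of *Dvl1* all lie below 0 and those of *Gsk3a* all above it.

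The Wnt ligands had peaks in 11 of 19 genes. Of their 14 pairs, 6 were higher in CCI and 8 lower, with a median log2 ratio of -0.23. At least 2-fold higher were 2 (14.3%) and at least 2-fold lower was 1 (7.14%), where all pairs had 8.59% and 7.25%. With so few pairs in a role, such counts describe the pairs named and do not set a role apart. In this and the roles below, the background for direction was 51.8% of all pairs higher in CCI and 47.8% lower. *Wnt7b*, which acts on blood vessels of the central nervous system, had the strongest ligand peak, in the 5′-UTR (chr15:85577769-85577948), with a fold enrichment of 58.9 in CCI and 84.8 in sham. Its 3′-UTR peak went the other way, with 18.7 in CCI and 8.86 in sham, a log2 ratio of 1.08. That sham peak spanned 865 bases, over which the CCI list held this peak of 448 bases and a second one at 7.42. *Wnt4*, a ligand with roles in neurons and in many epithelia, had 49 in CCI and 42.3 in sham at its strongest pair. The CCI peak covered 300 bases and the sham peak 719, over which the CCI list held a second peak at 10.1. A weaker 3′-UTR peak of *Wnt4* (chr4:137298169-137298438) was 2.12-fold higher, at 9.64 in CCI and 4.55 in sham.

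*Wnt5b*, which like *Wnt5a* is best known for signals that do not pass through β-catenin, was the ligand furthest below 0, with 10.2 in CCI and 27.5 in sham (log2 ratio -1.43). Its sham peak covered 746 bases and its CCI peak 240, so the borders differed along with the values. The strongest peak of *Wnt5a*, in its 3′-UTR and with the same borders in both lists, had 12.2 in CCI and 17.7 in sham. The 3′-UTR peak of *Wnt7a*, a close relative of *Wnt7b*, had 19.4 in CCI and 36.4 in sham. The strongest pairs of the other ligands lay within 2-fold of each other, with 9.68 and 8.65 in *Wnt3*, 3.53 and 3.92 in *Wnt6*, and 14.1 and 20.9 in *Wnt10a*, in the order CCI and sham. Among the ligands, the strongest pairs of *Wnt3* and *Wnt4* were the ones higher in CCI.

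The Frizzled receptors, which bind Wnt ligands at the cell surface, had peaks in 9 of 10 genes. Their 22 pairs were spread evenly, with 12 higher in CCI, 9 lower and a median log2 ratio of 0.03. *Fzd4*, which is also the receptor of norrin in retinal vessels, stood above 0 in all 3 of its pairs. In its second exon the pairs had 7.12 in CCI and 3.45 in sham (chr7:89407555-89408095), and 9.27 and 4.62 (chr7:89407045-89407345). Its strongest peak, in the 3′-UTR and with the same borders in both lists, had 27.3 and 19.5. *Fzd8* had the highest Frizzled values, in a 3′-UTR peak of 141 in CCI and 123 in sham. An exon peak of *Fzd8* had 13.6 in CCI and 32.5 in sham (log2 ratio -1.26), but the sham peak covered 1017 bases, over which the CCI list held peaks of 479 and 359 bases with 13.6 and 19.3.

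The strongest pairs of the other Frizzled genes were within 2-fold. *Fzd10* was furthest below 0, with 29.2 in CCI and 52.3 in sham, followed by *Fzd6* with 12.5 and 16, and *Fzd7* with 12.1 and 14.0. *Fzd9* was above 0, with 11.8 and 9.07. The remaining 3 hardly differed, with 10.3 and 10.3 in *Fzd1*, 7.82 and 7.84 in *Fzd2*, and 7.12 and 6.97 in *Fzd5*.

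The co-receptors *Lrp5* and *Lrp6*, whose cytoplasmic tails recruit Axin once phosphorylated, had 7 pairs, 2 in *Lrp5* and 5 in *Lrp6*. Of these, 6 were lower in CCI and 1 higher, where 47.8% of all pairs were lower. *Lrp6* had its strongest peak in the 3′-UTR, with 68.9 in CCI and 71.3 in sham. The strongest peak of *Lrp5*, also in the 3′-UTR, had 42.2 in CCI and 119 in sham, 2.82-fold lower. The exonic bases were close in number, 360 in CCI and 330 in sham, but the CCI peak reached over an intron to chr19:3590981 and the sham peak ended at chr19:3586458. The second *Lrp5* pair was lower as well, with 6.29 and 8.18.

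The Dishevelled genes, which couple the receptors to the destruction complex, had 11 pairs and held the largest ratio of any member. *Dvl1* had 5 of these pairs and *Dvl3* 6. Of the 11, 3 were higher in CCI and 8 lower, where 47.8% of all pairs were lower. *Dvl3* (ENSMUSG00000003233) had an exon peak with the same borders in both lists (chr16:20522449-20522868, exon 2 of 4 of an annotated transcript), with a fold enrichment of 46.4 in CCI and 5.23 in sham. This 8.87-fold difference (log2 ratio 3.15) lay at percentile 99.9 of all pairs. The peak was called with a false discovery rate of 3.98e-16 in CCI and of 8.51e-06 in sham. Exon 4 of the same transcript held a second *Dvl3* pair, with 33.9 in CCI and 13.4 in sham (chr16:20524987-20525167). At the start of *Dvl3*, printed above, the 5′-UTR peak had the same borders in both lists and was lower in CCI, with 58.4 against 77.9. The 3 other *Dvl3* pairs, toward the 3′ end of the gene, had log2 ratios of -0.28, -0.07 and 0.77.

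*Dvl1* showed a single direction, with all 5 pairs lower in CCI and none 2-fold apart. Its 5′-UTR peak had the highest member value of the sham list, at 236, against 150 in CCI, and began within the first 50 transcribed bases. The other 4 pairs lay in exons, with values from 1.41 to 3.82 in CCI and from 1.51 to 6.91 in sham. *Dvl2* had 1 peak, in the sham 3′-UTR, at 5.23.

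The destruction complex and β-catenin had peaks in all 7 genes and 31 pairs. Of these pairs, 21 were higher in CCI and 10 lower, where over all pairs 51.8% were higher and 47.8% lower. The median log2 ratio was 0.27. The higher pairs lay mostly in *Apc* (7), *Gsk3a* (5), *Apc2* (4) and *Axin2* (4). By the strongest pair of each gene, *Apc2*, *Gsk3a* and *Gsk3b* were higher in CCI, and *Apc*, *Axin1*, *Axin2* and *Ctnnb1* were lower. Without 3 *Gsk3a* exon pairs described below, 18 of 28 were higher and 10 lower, with a median of 0.20. At least 2-fold higher were 4 of the 31 pairs (12.9%, where the background was 8.59%), and none was 2-fold lower (where it was 7.25%). *Gsk3a* (ENSMUSG00000057177), a kinase that phosphorylates β-catenin, had the strongest peak of any member in CCI. It covered the start of transcription printed above (chr7:25237433-25237851 in CCI), with 579 in CCI and 162 in sham, a 3.57-fold difference at percentile 97.9 of all pairs. In the 3′-UTR of *Gsk3a*, with the same borders in both lists, the values were 12.4 and 9.63. All 5 *Gsk3a* pairs were thus higher in CCI, but 3 of them are exon rows that overlap each other and that the deposited annotation ties to another gene identifier, ENSMUSG00000090330. RefSeq places the noncoding gene *9130221H12Rik* there (chr7:25228723-25230264), inside *Gsk3a*, so these 3 pairs cannot be assigned to *Gsk3a* with certainty. The related kinase *Gsk3b* had 21.6 in CCI and 17.9 in sham at its 5′-UTR peak, and its 2 weaker pairs were lower in CCI.

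*Apc2* (ENSMUSG00000020135), a relative of *Apc* that is found mainly in neurons, had a 5′-UTR peak of 110 in CCI and 21.3 in sham (chr10:80300881-80301300), a 5.16-fold difference at percentile 99.2. The RefSeq start of *Apc2* printed above, at chr10:80301042, lies in this peak. The peak begins upstream of it, and the gene start in the deposited tables is chr10:80295977, outside the peak. The 3 pairs that followed, in its exons 4, 6 and 10, were also higher in CCI, at 9.73 against 5.04, 3.29 against 2.14 and 8.00 against 4.61. The long peak over its last exons was not, with 14.7 in CCI and 18.4 in sham. In sham this peak ran over 6165 bases, and in CCI it was called as 2 peaks of 3233 and 2873 bases.

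*Apc*, the scaffold of the complex mutated in familial polyposis, had 10 pairs, all annotated to exon 16 of 16 or the 3′-UTR. In CCI, peaks labelled 3′-UTR from chr18:34312037 to chr18:34313894 lay upstream of those labelled exon 16, at chr18:34314672 to chr18:34317667. For them the label does not mark the 3′ end of the gene. The strongest had 11.6 in CCI and 13.1 in sham, and 7 of the 10 were above 0. A weak *Apc* pair passed the 2-fold line, with 3.18 in CCI and 1.56 in sham, where the peaks covered 180 and 61 bases. *Axin2*, an Axin gene that is itself a target of the pathway, had 26.0 in CCI and 29.5 in sham in its 3′-UTR. Its peak in exon 6 of 11 (chr11:108942273-108942602) had 9.43 in CCI and 4.24 in sham, 2.22-fold higher. *Axin1*, the constitutive scaffold, had 11.1 in CCI and 20.4 in sham at a pair annotated to exon 2 of 11 in CCI and to the 5′-UTR in sham. *Ctnnb1*, which codes for β-catenin, was weakly enriched throughout. Its 3′-UTR pair had 1.5 in CCI and 1.86 in sham. The peak over its RefSeq start, printed above, was called in sham alone, at 1.72.

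**Figure D5:**
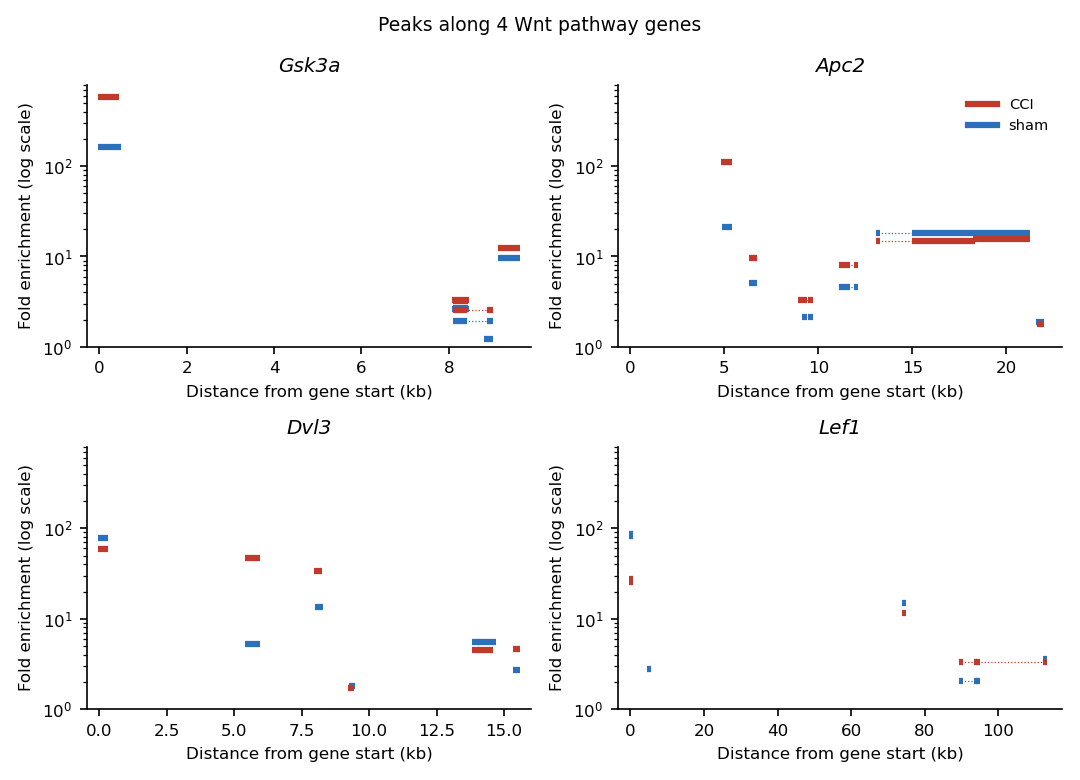
Peaks along *Gsk3a*, *Apc2*, *Dvl3* and *Lef1*, with distance from the gene start in the deposited tables in kb (horizontal) and fold enrichment (vertical, log scale); bars are exonic blocks, joined by dotted lines over introns, with CCI in red and sham in blue. The CCI bar is above the sham bar at the start of *Gsk3a* (579 against 162) and in the *Apc2* 5′-UTR (110 against 21.3), and below it at the start of *Lef1* (25.2 against 82.5).

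The TCF/LEF factors, which bind β-catenin on DNA, had 9 pairs, 5 higher in CCI and 4 lower, where 51.8% of all pairs were higher. *Lef1* (ENSMUSG00000027985) had the lowest ratio of all members. Its 5′-UTR peak had the same borders in both lists (chr3:131110471-131110801), with 25.2 in CCI and 82.5 in sham, 3.27-fold lower (log2 ratio -1.71). A second row of each list over the same stretch had 27.3 in CCI and 86.0 in sham. Further along *Lef1*, an exon peak had 11.5 and 15.1, and a peak toward the 3′ end had 3.35 and 2.05. At this last pair the CCI peak covered 330 bases and the sham peak 121. The sham list held a second peak over the same CCI peak, at 3.55. *Tcf7l1*, a factor that mostly represses its targets, was higher in CCI in 2 pairs near its 3′ end. The first, in the 3′-UTR, had 10.2 in CCI and 3.78 in sham, and the second, annotated to the 3′-UTR in CCI and to an exon in sham, had 6.78 and 2.48. The sham peaks covered 61 and 151 bases and the CCI peaks 181 and 241. *Tcf7l2*, which acts in oligodendrocyte maturation, had 13 in CCI and 15.1 in sham at its strongest pair. *Tcf7* had 3.43 and 5.81.

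The membrane ubiquitin ligases *Rnf43* and *Znrf3*, which remove Frizzled receptors from the surface, had 6 pairs. Of these, 2 were higher in CCI and 4 lower, where 47.8% of all pairs were lower. In *Rnf43*, the pair in exon 9 of 10 (chr11:87731694-87732263) had 15.2 in CCI and 37.2 in sham, 2.45-fold lower. The neighbouring pair was also lower, with 3.96 and 6.28. The borders differed in both, with 570 bases in CCI and 809 in sham at the first pair and 121 and 181 at the neighbouring one. In *Znrf3*, all 4 pairs lay in exon 8 or the 3′-UTR and went both ways. Its strongest pair had 13.7 in CCI and 8.13 in sham, and a weaker one had 3.30 and 7.41, with 180 bases in CCI and 419 in sham.

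The secreted inhibitors had peaks in 6 of 8 genes and 9 pairs, none of them 2-fold apart (where 15.8% of all pairs were), with 5 higher in CCI and 4 lower. *Sfrp5* and *Sfrp1*, which bind Wnt proteins outside the cell, had 21.6 and 16 in CCI and 12.9 and 25 in sham at their strongest peaks, in that order, so they differed in direction. *Dkk2*, which binds Lrp5 and Lrp6, had 16.2 in CCI and 25.6 in sham. *Dkk3*, a diverged member of the family, had 4.34 and 3.88. The CCI peak of *Sfrp2* had 2.20, and the sham peak of *Sfrp4* had 6.97.

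Peaks without a partner were narrower than peaks with one in both lists, and by median they were weaker in CCI but not in sham. Peaks with a partner had a median fold enrichment of 7.425 over 284 bases in CCI and of 6.09 over 270.5 bases in sham. In the CCI list the 15 without a partner had a median of 2.73 over 121 bases. The strongest were in *Tcf7* (13.6, a value held by 71 CCI peaks), *Fzd5* (11.5) and *Wnt10a* (10.4, held by 123). In the sham list the 26 had a median of 6.97 over 150 bases, led by an exon peak of *Rnf43* (20.9, held by 74 sham peaks) and a 5′-UTR peak of *Fzd2* (18.6). By role, these 26 were 8 of the 22 sham peaks of ligands (overlapping *Wnt5a* rows counted separately), 7 of 29 of Frizzled genes, 3 of 12 of secreted inhibitors, 3 of 35 of the destruction complex, 2 of 13 of Dishevelled genes, and 1 each of 12 of TCF/LEF factors, 8 of co-receptors and 7 of ubiquitin ligases. Over all members the sham share of 18.8% was near the background of 16.1%. The 15 CCI peaks were 4 of 37 of the destruction complex, 3 of 27 of Frizzled genes and 2 of 19 of ligands. They were also 2 of 11 of TCF/LEF factors, 2 of 11 of secreted inhibitors, and 1 each of 12 of Dishevelled genes and 8 of co-receptors. Their share of 11.5% was near the background of 12.3%. No difference between roles was tested. Among the sham peaks were *Wnt8b* at 17.4 (held by 99), *Wnt9a* at 16.8 over 480 bases, and *Wnt11* at 17.4 and at 15.1 (held by 154). As these counts show, some values recur across a list. A combination of fold enrichment and p-value held by at least 20 peaks of the same list was found in 10 of the 26 sham peaks, where the background for sham peaks without a partner was 25.0%, and in 3 of the 15 CCI peaks, where it was 15.9%. Among the strongest pairs, those of *Wnt10a*, *Tcf7l2* and *Dkk2* held such a value in at least 1 list. The value of 12.8, for instance, was shared by unpaired sham peaks of *Fzd7*, *Fzd5* and *Wnt5a* and by 171 sham peaks in all. The most common repeated value was 10.4 in CCI and, held by 211 peaks, 13.9 in sham. The part of read depth in these values was not tested, since the tables hold no counts.

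Other genes of the pathway were read from a list of 72 symbols that holds ligand processing factors, R-spondins and their receptors, casein kinases, nuclear cofactors, planar polarity genes and targets. Of these, 64 had a peak and 59 had a pair. Their 176 pairs had a median log2 ratio of 0.03; 15 (8.52%) were at least 2-fold higher in CCI and 11 (6.25%) at least 2-fold lower, where the background was 8.59% and 7.25%. By the strongest pair of each gene, 25 genes were higher in CCI and 34 lower, where 50.7% of all genes were higher, with a median of -0.14 against 0.01 over all genes. The highest were *Vangl1*, a planar polarity membrane protein, with 17.7 in CCI and 4.57 in sham, and *Pygo1*, a nuclear partner of β-catenin complexes, with 81.6 and 25.2. *Prickle3*, another polarity gene, followed with 18.8 and 5.81, one of which is a repeated value. The lowest were *Ep300*, an acetyltransferase that β-catenin recruits, with 20.3 in CCI and 123 in sham in its 5′-UTR, then *Csnk1g2*, a kinase of the Lrp6 tail, with 10.4 and 61.0, and *Nfatc1*, a calcium-controlled factor, with 4.56 and 25.6.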

How the data were processed

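Spinal cord RNA of CCI and sham mice was measured by MeRIP-seq in 4 libraries. The deposited tables are a CCI peak list, a sham peak list and a table of differential peaks. In each, the authors give a fold enrichment (a ratio of IP over input) and a p-value for IP against input. The log10 values of p and of the false discovery rate, as deposited, were read as a score, because some are minus infinity. The submitters' processing notes name fastp, HISAT2, HOMER, ChIPseeker and GRCm38, with no versions, whereas the methods of the paper name Cutadapt, bowtie, MACS2 and ChIPseeker; the column names are those of exomePeak output. Use of strand in counting is not given in the sources used here. The differential table also carries the authors' fold change, p-value and false discovery rate of CCI against sham, which were not used.

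Overlap was counted over exonic blocks, from 1 bp upward, and each pair was the best partner of both peaks by shared bases. Log2 ratios were taken without a pseudocount. Genes were named by a rule that takes the strongest pair of every member, every pair at least 2-fold apart, the strongest unpaired peaks, and the 3 highest and 3 lowest of the other pathway genes. Further pairs of *Dvl1*, *Dvl3*, *Apc2*, *Gsk3a*, *Lef1* and others, and the genes that share a repeated value, were picked with their values in view. The members and lists were chosen with earlier results of these data known. A marker gene of the peripheral list is not reported here. Alternatives covered overlap, false discovery rate, fold enrichment, the fold counted, centring and the unit of counting. Pairing and counting were tested on simulated data in which a peak had at most a single partner. Peaks split in either list and rows that overlap within a list were not simulated. No genome sequence was used, so motifs inside peaks were not searched. The scripts ran under Python 3.11.15 with matplotlib 3.10.9 for plots, pandas 2.3.3 and numpy 2.4.6 for tables, and scipy 1.17.1.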

Additional observations from a re-analysis of the deposited data

How the results depend on the processing

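No paired analysis was possible because the groups hold a single IP library and a single input library apiece. Of 48 alternative values of the summary results, 35 stayed close to the value reported. Close meant within 0.1 for a median log2 ratio and at most 1.5-fold apart for a count. When an overlap of 50% of both peaks was required, 12 of the 18 pairs at least 2-fold apart remained pairs. That overlap gave 3 pairs at least 2-fold lower (3.19%, where the background was 6.22%) and lowered the shares with a partner to 71.8% in CCI and 68.8% in sham. With 1 pair per gene the median log2 ratio was -0.20 and 3 pairs were at least 2-fold higher, where the background was 11.5%. At 1.5-fold, 24 pairs were higher and 19 lower, where the backgrounds were 18.8% and 16.4%. At 3-fold, 3 were higher and 1 lower, where they were 3.18% and 2.54%. Further alternatives were chosen after seeing the data. With a false discovery rate under 1e-10, 5 pairs were at least 2-fold higher (7.58%, where the background was 6.86%) and 4 lower (6.06%, where it was 5.37%). Among the 36 pairs that share at least 90% of their bases, the median was 0.16, with 3 pairs at least 2-fold higher (8.33%, background 6.55%) and 2 lower (5.56%, background 4.65%). The causes of these moves were not tested, other than that fewer pairs or another threshold entered each count. Each list has its own input library and its own peak borders, and the unknown depth leaves the error of each ratio unknown.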

Other observations

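The table of differential peaks held 17 rows of Wnt pathway genes, with positions called on both groups together and a fold enrichment pooled over them. *Gsk3a* had 3 rows, *Axin1*, *Ctnnb1* and *Dvl1* had 2 each, and *Apc*, *Apc2*, *Axin2*, *Dkk3*, *Dvl3*, *Fzd1*, *Fzd4* and *Wnt9a* had 1 each. The exon rows of *Gsk3a* overlap each other and lie on the stretch that, as described above, cannot be assigned to *Gsk3a* with certainty. The row of *Dvl3* lay in its 3′-UTR and that of *Apc2* over its last exons. By region, 7 were 3′-UTR rows, 6 exon rows and 4 5′-UTR rows. Peaks of both lists overlapped 13 of the rows, a CCI peak alone 1 row of *Dkk3*, and a sham peak alone 3 rows, of *Axin1*, *Ctnnb1* and *Wnt9a*. The authors' pooled fold enrichment was highest over the start of *Gsk3a*, at 274, followed by the *Axin2* 3′-UTR at 21.5 and the last exons of *Apc2* at 17.0. It was lowest over the RefSeq start of *Ctnnb1*, at 1.34. A single member pair carried another gene name in the CCI list: a peak with 4.54 in CCI was named Gm15401 there, and its partner with 4.36 in sham was named *Tcf7l1*.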
